A study of Mus musculus with 24 samples.

Results

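The 10 genes described here encode the apolipoproteins Apoa1, Apoa2, Apoa4, Apoa5, Apob, Apoc1, Apoc2, Apoc3 and Apoe and the lipid transfer protein subunit Mttp. They were taken by symbol from a count table of 56205 genes in whole mouse liver, and all 10 were measured. The study fed C57BL/6J mice of both sexes, young adult at the start, 1 of 2 diets for 20 weeks. One diet, labelled FFD, was a high fat diet, and the study's methods describe palm oil, fructose and cholesterol in its diet of this kind. The other was its control diet, which the treatment label calls chow. There were 12 libraries of poly(A)-selected RNA on each diet, from mice with no genetic change and no other agent. The labels number the libraries of a diet but do not give the sex, cage or batch of any of them. The p-values therefore measure the spread between libraries.

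Apolipoproteins are the protein coats of the particles that carry fat and cholesterol in blood. In hepatocytes, Mttp loads lipid onto Apob in the endoplasmic reticulum to start a very low density lipoprotein (VLDL), while Apoa1 and Apoa2 form the frame of high density lipoprotein (HDL). The smaller apolipoproteins steer the particle in blood: Apoc2 and Apoa5 favour triglyceride breakdown by lipoprotein lipase, Apoc3 and Apoc1 restrain breakdown or uptake, and Apoe binds the receptors that clear remnants.

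With TMM scaling on all 24 libraries, Mttp, Apoa5, Apoc3 and Apoa1 fell by 40.3% to 45.4% on the FFD against the control diet, and Apoc2 rose by 59.1%. A gene was called when its adjusted p was at most 0.01 and its log2 fold change was beyond 0.5 in size, in edgeR's quasi-likelihood test of 17913 genes with TMM scaling, which sets libraries to each other on the assumption that most genes do not differ. Of the 10 genes, 4 were called lower, where 4.99% of all tested genes were, and 1 was called higher, where 13.2% were. The median log2 fold change was -0.45 over the 10 genes and -0.03 over all tested genes. These results depended on the scaling and on single libraries. With library totals, Apoa5 and Mttp were called lower (1.26% of tested genes were), and Apoa1 and Apoc3 were not. Scaled to hepatocyte genes, none was (0.614%). Leaving out 1 library brought the log2 fold change of Apoc3 to -0.53 and that of Apoa1 to -0.64 at the smallest. Apoc2 lost its call in 13 of 24 such fits.

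7 of the genes lie in 2 clusters. GENCODE M21 (GRCm38, the mm10 assembly) places Apoa1 (chr9:46228580-46230466, plus strand), Apoc3 (chr9:46232933-46235636, minus strand), Apoa4 (chr9:46240696-46243459, plus strand) and Apoa5 (chr9:46268633-46271919, plus strand) within 43.34 kb. On the minus strand of chromosome 7, Apoc2 (chr7:19671579-19677941), Apoc1 (chr7:19689481-19692660) and Apoe (chr7:19696109-19699188) span 27.61 kb. Apoa2 is at chr1:171225054-171226379 (plus strand), Apob at chr12:7977648-8016835 (plus strand) and Mttp at chr3:138089854-138144968 (minus strand). In the first cluster Apoa1, Apoc3 and Apoa5 fell while Apoa4, between them, had a log2 fold change of 0.90, and in the second Apoc2 rose beside Apoe and Apoc1, which were not called. The 250 bases upstream of the RefSeq start are shown for 3 genes of the first cluster and for Apoc2, because their diet effects differed in sign. The windows are chr9:46228380-46228629 for Apoa1, chr9:46240594-46240843 for Apoa4, chr9:46268383-46268632 for Apoa5, all on the plus strand, and chr7:19677942-19678191 on the minus strand for Apoc2. The sequences are from RefSeq, GRCm38.p6, and are written 5′ to 3′ on the strand of the gene. The RefSeq starts of Apoa1 and Apoa4 lie inside the GENCODE genes given above, so 50 and 148 bases of these windows overlap them. Capitals mark every match, on either strand, to CAAAGNNCA (a core of the sites that Hnf4a binds), AGGTCA (a nuclear receptor half-site) or CACGTG (an E-box). A CAAAGNNCA match whose free bases are GT also contains AGGTCA.
Apoa1: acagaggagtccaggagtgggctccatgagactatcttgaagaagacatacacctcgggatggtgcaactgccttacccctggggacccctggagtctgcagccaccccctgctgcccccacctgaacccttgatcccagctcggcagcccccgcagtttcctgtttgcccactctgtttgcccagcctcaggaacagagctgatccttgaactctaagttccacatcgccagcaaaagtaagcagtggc
Apoa4: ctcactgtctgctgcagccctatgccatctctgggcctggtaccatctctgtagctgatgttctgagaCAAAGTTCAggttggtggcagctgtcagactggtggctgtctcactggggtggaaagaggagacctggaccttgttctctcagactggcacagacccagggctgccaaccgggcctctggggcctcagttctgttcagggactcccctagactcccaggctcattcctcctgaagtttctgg
Apoa5: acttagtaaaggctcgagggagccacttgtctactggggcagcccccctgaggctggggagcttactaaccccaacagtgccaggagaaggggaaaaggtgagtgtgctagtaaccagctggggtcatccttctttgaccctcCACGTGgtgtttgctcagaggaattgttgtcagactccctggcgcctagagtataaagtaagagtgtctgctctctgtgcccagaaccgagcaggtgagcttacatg
Apoc2: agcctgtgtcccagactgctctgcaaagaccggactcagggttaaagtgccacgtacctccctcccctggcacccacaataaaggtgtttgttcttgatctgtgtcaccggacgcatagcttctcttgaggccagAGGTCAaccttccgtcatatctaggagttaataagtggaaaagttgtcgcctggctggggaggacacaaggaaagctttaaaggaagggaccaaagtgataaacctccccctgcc
RefSeq windows were given for 8 of the 10 genes. The CAAAGNNCA core was present in the window of Apoa4, at positions -182 to -174 from the start, and in that of Apob, on the other strand at -103 to -95. It was present in 5.49% of the 32851 upstream windows of all genes. Apoc2 held the AGGTCA half-site at -115 to -110, as did 14.02% of windows, and Apoa5 held the E-box at -107 to -102, as did 6.02%. The windows of Apoa1, Apoa2, Apoe and Mttp held no match, and those of Apoe and Mttp lie wholly inside the GENCODE genes. A match describes the sequence only.

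The libraries held 16490817 to 21213070 counts on the FFD and 14468418 to 22112552 on the control diet. The 10 genes took a median of 4.63% of the counts on the FFD (range 4.10% to 5.19%) and of 4.09% on the control diet (3.78% to 5.83%). Control replicate 10, the library with the fewest counts, stood apart. Its TMM factor was 0.679, against 0.851 to 1.01 in the other 11 control libraries and 0.994 to 1.34 on the FFD. In CPM, the counts scaled to a common library size (here with TMM), its level was 3.79 times the median of the other 11 control libraries for Apoc3, 3.72 times for Apoc1, 3.61 times for Apoa2 and 3.09 times for Apoc2, but 0.523 times for Apob. The TMM diet effects of the 10 genes are therefore given with and without it. FFD replicate 9 had the highest TMM factor, 1.34. In CPM it was the lowest FFD library for Apoa2, Apoa5, Apob, Apoc1, Apoc3, Apoe and Mttp. Without it, the log2 fold change was -0.74 for Mttp, still called, and -0.19 for Apob. As a second split, 12 libraries, 6 of each diet, had over 1000 counts of Xist, the RNA that coats the inactive X chromosome in female cells (2664 to 6285 counts), and the other 12 had 0 to 3. These are called the Xist-high and Xist-low sets.

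**Figure D1:**
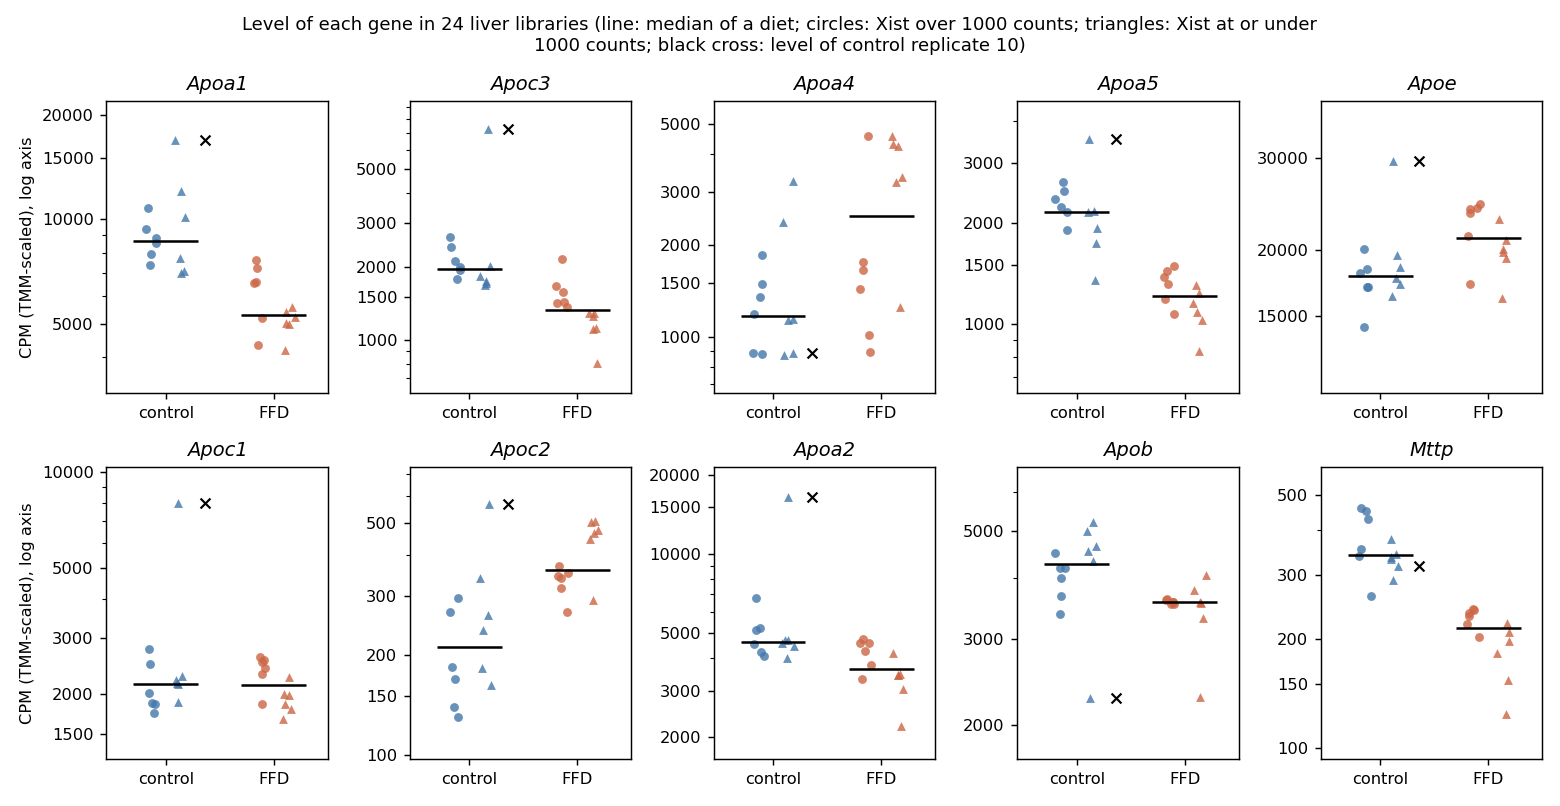
Level of each gene in CPM (TMM-scaled, log axis) in 12 control and 12 FFD libraries, with a line at the median of each diet, circles for the Xist-high and triangles for the Xist-low set, and a black cross at the level of control replicate 10. The diets do not overlap for Mttp, and control replicate 10 is the highest control library for Apoa1, Apoa2, Apoa5, Apoc1, Apoc2, Apoc3 and Apoe.

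With TMM scaling, Mttp separated the diets most clearly of the 10 genes. Mttp encodes the large subunit of the transfer protein that lipidates Apob. Its level was 124 to 241 CPM on the FFD (median 214) and 262 to 459.8 CPM on the control diet (median 340.2). All 12 FFD libraries were below the lowest control library. Mttp fell by 0.81 on the log2 scale (SE 0.11, adjusted p = 4.72e-06), a drop of 42.8%, and by 0.82 (SE 0.11, adjusted p = 5.13e-06) without control replicate 10. With TMM, it was the only one of the 10 genes whose diets did not overlap. This state was reached in the lower direction by 0.402% of tested genes, and in the higher direction by 1.48% of tested genes and none of the 10. On library totals the diets overlapped for Mttp, at 166 to 250 CPM on the FFD and 216 to 416 CPM on the control diet. The lowest control library was then replicate 10. Without it, the lowest was at 263 CPM, above every FFD library.

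Apob, the structural protein of VLDL and its remnants, did not pass the test. Its level was 2283 to 4052 CPM on the FFD (median 3567) and 2269 to 5208 CPM on the control diet (median 4267). The ranges overlapped, but all 12 FFD libraries were below the control median, and the lowest control library was replicate 10. The log2 fold change was -0.25 (SE 0.11, adjusted p = 0.0720) and, without control replicate 10, -0.31 (SE 0.09, adjusted p = 0.00610), which is below the size needed for a call.

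Of the HDL proteins, Apoa1, which also activates the cholesterol-esterifying enzyme Lcat, fell. Its level was 4208 to 7634 CPM on the FFD (median 5318) and 6990.4 to 16912 CPM on the control diet (median 8677). 10 of 12 FFD libraries were below every control library, and the 2 FFD libraries above that bound were replicates 1 and 6. Apoa1 fell by 0.74 on the log2 scale (SE 0.14, adjusted p = 0.000173), and by 0.64 (SE 0.12, adjusted p = 0.000123) without control replicate 10.

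Apoa2, the other main HDL protein, ranged from 2205 to 4746 CPM on the FFD (median 3624) and from 4024 to 16514 CPM on the control diet (median 4630.1). 7 of 12 FFD libraries were below the lowest control library. Its log2 fold change of -0.61 (SE 0.20, adjusted p = 0.0162) missed the threshold. Without control replicate 10, the highest library, it was -0.34 (SE 0.11, adjusted p = 0.0169), so this library moved the value by more than 1.5 times.

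The regulators of lipoprotein lipase split by direction, with the inhibitor Apoc3 and the activator Apoa5 lower and the cofactor Apoc2 higher. Apoa5 ranged from 833 to 1490.0 CPM on the FFD (median 1213) and from 1349 to 3535 CPM on the control diet (median 2156). 9 of 12 FFD libraries were below the lowest control library, replicate 11. Apoa5 fell by 0.87 on the log2 scale (SE 0.12, adjusted p = 6.95e-06), and by 0.79 (SE 0.11, adjusted p = 4.77e-06) without control replicate 10.

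Apoc3 was at 809.9 to 2144 CPM on the FFD (median 1334) and at 1674 to 7323 CPM on the control diet (median 1959). 11 of 12 FFD libraries were below the lowest control library, and the exception was FFD replicate 3. Apoc3 fell by 0.82 on the log2 scale (SE 0.21, adjusted p = 0.00310). Without control replicate 10 it fell by 0.53 (SE 0.12, adjusted p = 0.00110), which is a smaller effect by over 1.5 times with the call kept.

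Apoc2 was at 268 to 504 CPM on the FFD (median 361) and at 129.6 to 567 CPM on the control diet (median 211). All 12 FFD libraries were above the control median. The highest control library was replicate 10, and 8 of 12 FFD libraries were above each of the other 11. Apoc2 rose by 0.67 on the log2 scale (SE 0.19, adjusted p = 0.00794), and by 0.85 (SE 0.16, adjusted p = 0.000146) without control replicate 10. With all libraries its adjusted p lay close to the threshold: leaving out 1 library at a time, it lost the call in 13 of 24 cases (FFD replicates 7, 8, 10, 11 and 12 and control replicates 1, 2, 3, 5, 7, 8, 9 and 12), with fold changes from 0.61 to 0.68 and adjusted p from 0.0106 to 0.0149. The counting also holds a gene model, Gm44805, that overlaps Apoc2 on the same strand with a median of 435.5 counts against 5764 for Apoc2, so reads shared between them may be split.

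Apoc1, which slows receptor uptake of lipoproteins, did not differ detectably. Its level was 1668 to 2622 CPM on the FFD (median 2132) and 1741 to 8005 CPM on the control diet (median 2157). 6 of 12 FFD libraries lay on each side of the control median. The log2 fold change was -0.28 (SE 0.20, adjusted p = 0.270), and without control replicate 10 it was 0.02 (SE 0.09, adjusted p = 0.913), with the sign turned.

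Apoa4, a lipid-binding protein made by mouse liver and intestine, varied widely between libraries on the FFD and was not called. Its level was 897 to 4588 CPM on the FFD (median 2502) and 873 to 3265 CPM on the control diet (median 1171). The FFD libraries fell into 2 groups with a gap between them: 6 were at 897 to 1766 CPM and 6 at 3237 to 4588 CPM. The highest control library, replicate 11, overlapped the upper group, and 5 of 12 FFD libraries were above it. The log2 fold change of 0.90 (SE 0.29, adjusted p = 0.0172) missed the threshold with all libraries, and without control replicate 11 it was 1.07 (SE 0.28, adjusted p = 0.00399), a call. Leaving out FFD replicate 4 (0.98, adjusted p = 0.00893) or FFD replicate 5 (0.98, adjusted p = 0.00769) also gave a call, and leaving out any 1 of the other 21 libraries did not, control replicate 10 included (0.85, SE 0.30, adjusted p = 0.0263). An antisense gene model, Gm10680, overlaps Apoa4 (median 69 counts, highest 2191, against a median of 28940 for Apoa4). The strand setting of the counting is not given in the sources used here, so reads of such partners cannot be told apart.

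Apoe, the ligand through which the liver clears remnants, is made by hepatocytes and by macrophages. Its level was 16226 to 24434 CPM on the FFD (median 21098) and 14276 to 29586 CPM on the control diet (median 17902). The highest control library was replicate 10, and 8 of 12 FFD libraries were above each of the other 11. The log2 fold change was 0.18 (SE 0.11, adjusted p = 0.184), and 0.26 (SE 0.08, adjusted p = 0.0161) without replicate 10.

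**Figure D2:**
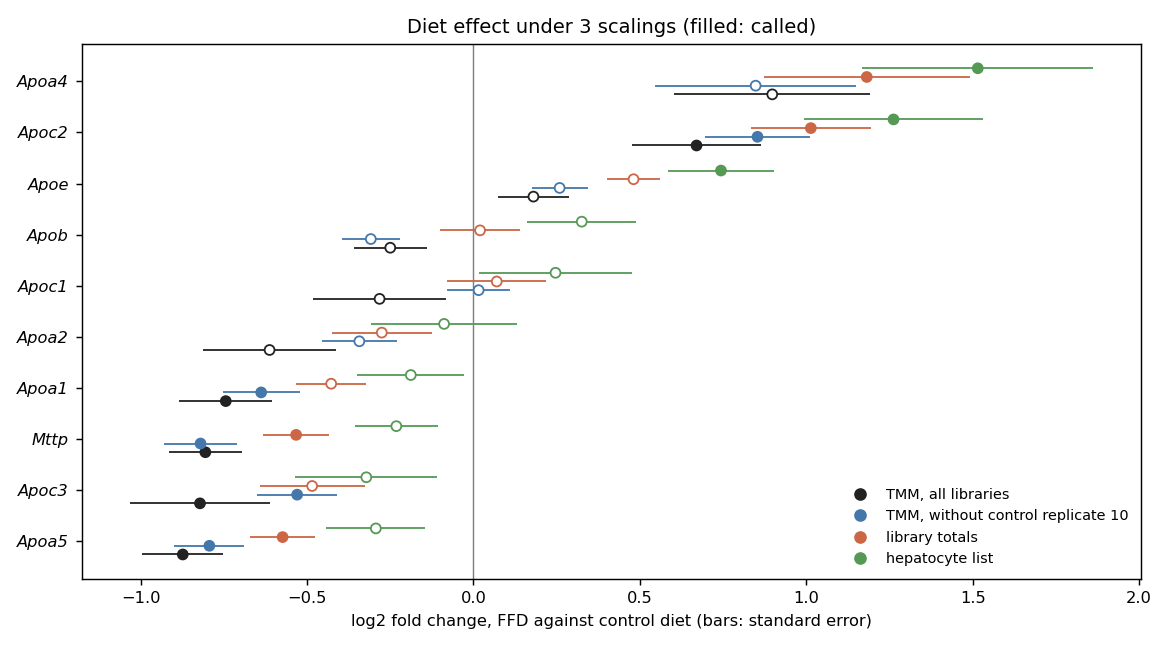
Log2 fold change of each gene (FFD against control diet, bars ± SE) with TMM scaling on 24 libraries, with TMM scaling without control replicate 10, with library totals and with scaling to a hepatocyte gene list. Filled points are called. Mttp and Apoa5 are called lower with TMM and library totals, and no gene is called lower with the hepatocyte list.

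The size of these effects depended on what the libraries were scaled to. With library totals in place of TMM, the median of all tested genes moved from -0.03 to 0.26. Called lower were 2 of the 10 genes, Apoa5 (-0.57, SE 0.10, adjusted p = 3.99e-05) and Mttp (-0.53, SE 0.10, adjusted p = 0.000121), against 1.26% of tested genes, while Apoa1 (-0.43, adjusted p = 0.00184) was short of the fold threshold and Apoc3 (-0.48, adjusted p = 0.0151) of both. Called higher were Apoa4 (1.18, SE 0.31, adjusted p = 0.00311) and Apoc2 (1.01, SE 0.18, adjusted p = 7.10e-05), against 21.4%. Apoe (0.48, SE 0.08, adjusted p = 2.88e-05) was just short of the fold threshold, and without control replicate 10 it was called on this scale (0.51, SE 0.08, adjusted p = 1.2e-05). Scaled to the summed counts of 12 hepatocyte genes, 3 were called higher, Apoa4 (1.52), Apoc2 (1.26) and Apoe (0.74), against 38.8% of tested genes with a median of 0.56. None was called lower, against 0.614%. Alb was the largest part of that sum. Its mean was 45210.5 CPM on the FFD and 74355 CPM on the control diet, where the sums had medians of 88198 and 129614 CPM. Apoa1, Apoa5, Apoc3 and Mttp stayed negative on this scale, with log2 fold changes of -0.19, -0.29, -0.32 and -0.23. Without control replicate 10, the TMM fit called Apoc2 higher (13.2% of tested genes) and Apoa1, Apoa5, Apoc3 and Mttp lower (5.1%). In bulk liver, fewer hepatocytes and less RNA per hepatocyte cannot be told apart.

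Markers of liver cell types moved alongside, in a TMM fit that called 4.99% of all tested genes lower and 13.2% higher. Of 12 hepatocyte markers, 9 were called lower with TMM and 2 with library totals, among them Tat (-1.33) and Cps1 (-0.99), a tyrosine-catabolic and a urea cycle enzyme. Their summed level was 59609 to 150883 CPM on the FFD and 106209 to 172653 CPM on the control diet. Of 14 macrophage markers, 11 were called higher, with Gpnmb at 5.49 and Trem2 at 3.47, and their sum was 1001 to 2124 CPM against 229.6 to 873 CPM, without overlap. 8 of 12 stellate cell or myofibroblast markers and 5 of 6 cholangiocyte markers were called higher, and none of 8 lymphocyte markers in either direction. Of 7 sinusoidal endothelial markers, Stab2 alone was called (0.57). None of the hepatocyte, macrophage, stellate or cholangiocyte markers was at 0 in all libraries. Of 8 small intestine markers 4 were at 0 in all libraries and 6 had at most 3 counts in each, as had 5 of 6 exocrine pancreas markers. The other small intestine markers were Fabp2, at 1177 to 2957 counts in every library, and Vil1, at 0 to 76 counts. The remaining pancreas marker, Cela2a, had 1 to 22 counts. The part of these shifts in the values of Apoe, which macrophages also make, and of the other genes was not tested.

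**Figure D3:**
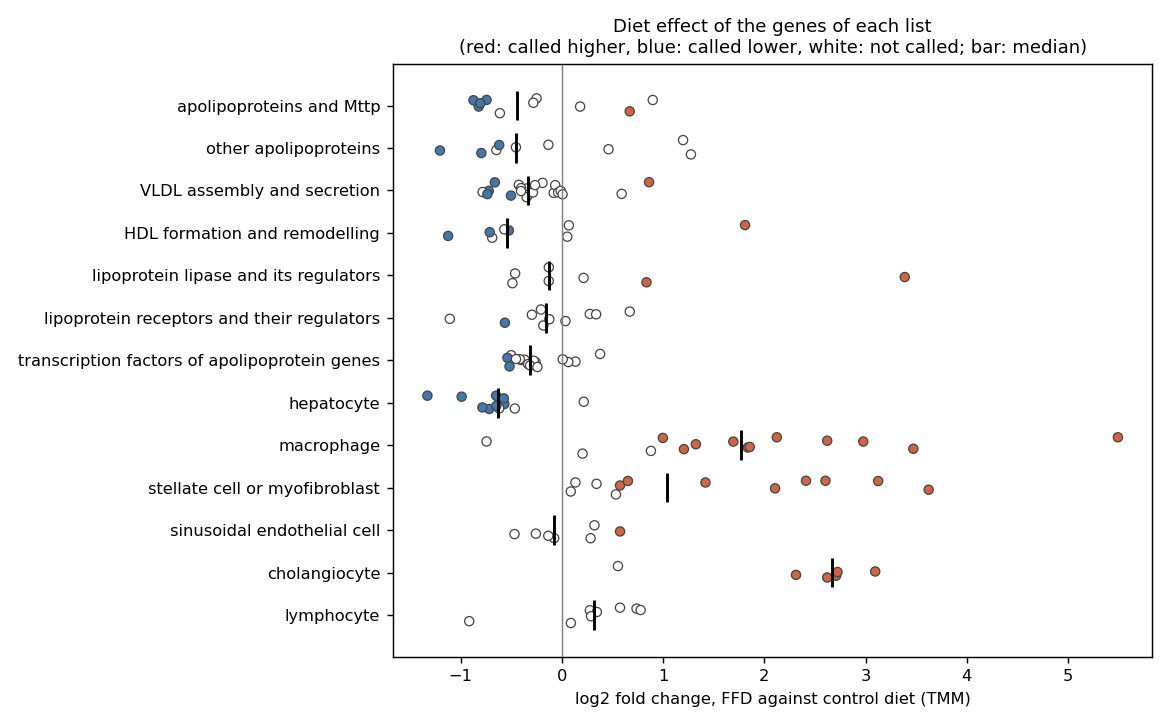
Log2 fold change (FFD against control diet, TMM) of each gene of the lists, red where called higher, blue where called lower, white where not called, with a bar at the median. The 10 apolipoprotein and Mttp genes and the hepatocyte markers lie mostly below 0, and the macrophage, stellate and cholangiocyte markers mostly above it.

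The order of the levels, compared per kb of exon, put Apoe, Apoa2 and Apoa1 at the top on both diets. On the control diet Apoa2 (median 8622 CPM per kb) and Apoe (8373) were not separated, since Apoa2 was the higher in 7 of 12 libraries. On the FFD Apoe (9868) was above Apoa2 (6748) in 12 of 12 libraries. Mttp was the lowest on both, at 54.8 CPM per kb on the control diet and 34.4 on the FFD. Apoa4 moved from the seventh place (645) to the fifth (1378), level with Apoc3 (1315), which it exceeded in 6 of 12 FFD libraries. Apob and Apoc2 changed places, with Apob at 306 and Apoc2 at 259 on the control diet, where Apob was the higher in 7 of 12 libraries and they were not separated, and Apoc2 at 444 above Apob at 256 in 12 of 12 FFD libraries.

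Ratios of 2 genes within a library do not depend on the scaling, and 5 were tested by permutation (100000 resamples, two-sided, adjusted over the 5). Apob/Mttp was 14.8 to 21.6 on the FFD (median 18.0) and 7.14 to 16.1 on the control diet (median 12.7), 1.49 times higher on the FFD (p = 3e-05, adjusted p = 0.00015), with 8 of 12 FFD libraries above every control library. Apoa4/Apoa1 was 2.85 times higher on average (p = 0.00109, adjusted p = 0.00182). It was 0.137 to 1.03 on the FFD and 0.0524 to 0.461 on the control diet, with 6 of 12 FFD libraries above every control library. Apoc2/Apoe was 1.49 times higher on average (p = 0.00453, adjusted p = 0.00566). It was 0.0126 to 0.0241 on the FFD and 0.0076 to 0.0193 on the control diet, also with 6 of 12 FFD libraries above every control library. Apoc1/Apoe was lower, with a log2 difference of -0.34 (p = 0.00043, adjusted p = 0.00107). It was -0.37 to -0.24 with 1 library left out, and the highest control ratio, 0.271, was that of control replicate 10. Apoc3/Apoa1 differed by 0.01 on the log2 scale (p = 0.953, adjusted p = 0.953), with a median ratio of 0.231 on the FFD and 0.245 on the control diet. The spread of this ratio was 0.35 and 0.36 (SD of the log2 ratio, n = 12 a diet).

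**Figure D4:**
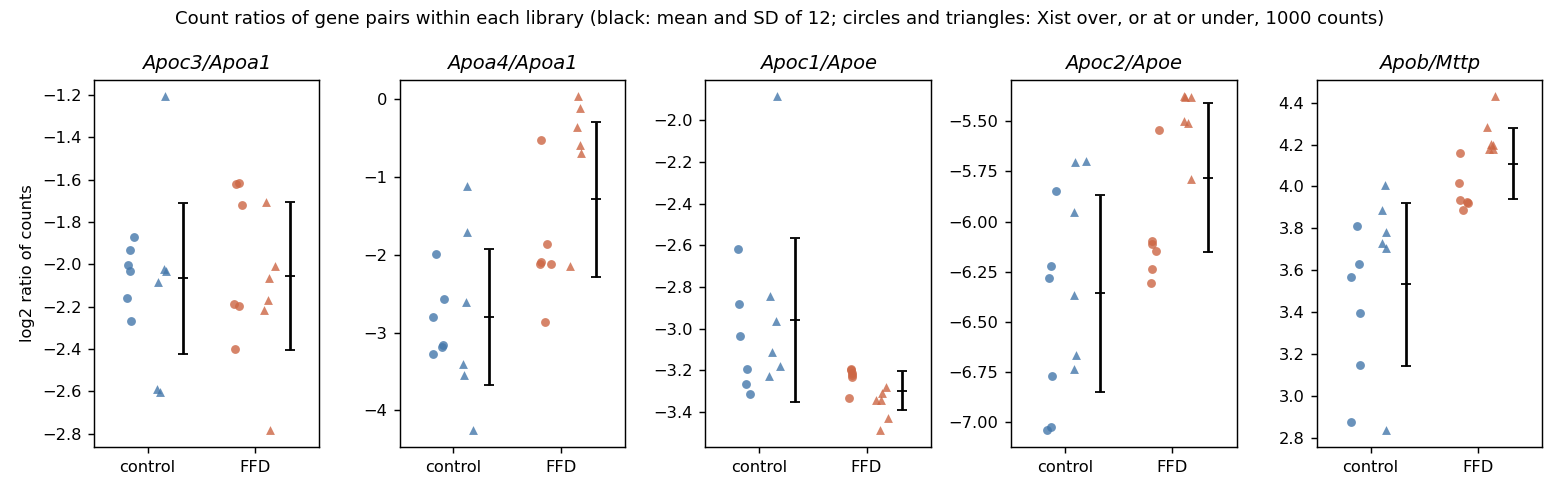
Log2 ratio of the counts of 5 gene pairs in each library, with circles for the Xist-high and triangles for the Xist-low set and black bars for mean ± SD of 12 libraries. Apob/Mttp, Apoa4/Apoa1 and Apoc2/Apoe are higher on the FFD, and Apoc1/Apoe is lower.

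Splitting by Xist, the Xist-high set of 6 libraries a diet called Apoa5 (-0.79, SE 0.11, adjusted p = 0.000488) and Mttp (-0.74, SE 0.13, adjusted p = 0.00185) lower, against 0.882% of tested genes, and none higher, against 2.9%. The Xist-low set called Apoa1 (-0.99), Apoa5 (-0.94) and Mttp (-0.86) lower, against 7.99%, and none higher, against 14.4%. Apoa4 had log2 fold changes of 0.58 (adjusted p = 0.272) and 1.13 (adjusted p = 0.0252) in the Xist-high and Xist-low sets, and 5 of its 6 highest FFD libraries were Xist-low. The difference between sets was itself tested as an interaction and with a threshold of 0.05 on the adjusted p. None of the 10 genes was called, against 10.2% of tested genes. The lowest adjusted p was 0.143 for Apoc1 (-0.85, SE 0.36). Control replicate 10 is in the Xist-low set, and without it this difference was -0.31 (SE 0.17, adjusted p = 0.235). Nor was any of the 10 called between the sets on the control diet (11.1% of tested genes were) or on the FFD (15.6%). On the FFD, Mttp came nearest (-0.33, SE 0.13, adjusted p = 0.0938). The absence of a call does not show equal levels. Apoc3 on the FFD was at 1370 to 2144 CPM in the Xist-high and 809.9 to 1297 CPM in the Xist-low set, without overlap. On library totals, Apoc2 on the FFD was at 280 to 375 and 393 to 597 CPM in these sets.

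The wider lipoprotein pathway gave the setting, and its list counts stand beside 4.99% of all tested genes called lower and 13.2% called higher with TMM. Among 9 tested other apolipoproteins, 3 were called lower. They were Apom (-1.20), the sphingosine 1-phosphate carrier of HDL, Apoh (-0.80), a phospholipid-binding plasma protein, and Apof (-0.62), an inhibitor of lipid transfer. None was called higher with TMM on all libraries, though log2 fold changes reached 1.27. With library totals, or without control replicate 10, 1 was called higher, and 2 were with the hepatocyte list. Apoc4 was not called (-0.65, adjusted p = 0.0217). Of 21 genes of VLDL assembly and secretion, 4 were called lower, Aadac (-0.74), a lipid hydrolase, and the vesicle coat genes Sec24a (-0.72), Sar1b (-0.66) and Sec23a (-0.50). Apobec1, which edits the Apob transcript, rose by 0.86 (7.71 ± 2.03 CPM on the control diet and 14.1 ± 3.27 CPM on the FFD, SD, n = 12). Tm6sf2 (-0.43) and P4hb, the other subunit of the Mttp complex (-0.08, adjusted p = 0.532), were not called.

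Of 8 genes of HDL formation and remodelling, Lipg (-1.12), Lipc (-0.71), the endothelial and hepatic lipases, and Lcat (-0.52) fell, Abcg1, a cholesterol exporter of macrophages, rose by 1.81, and Abca1, which lipidates Apoa1, was at 0.07 (adjusted p = 0.651). Of 7 genes of lipoprotein lipase and its regulators, Lpl rose by 3.39 (SE 0.28, adjusted p = 2.07e-08), from 12.8 ± 7.51 to 134.5 ± 57.9 CPM (SD, n = 12), as did Hspg2 (0.84). The 10 receptors and their regulators had a median of -0.15, with 1 called lower (2 without control replicate 10) and none higher. Of 18 transcription factors of apolipoprotein genes, Creb3l3 (-0.54) and Rora (-0.52) fell and Hnf4a (-0.40, adjusted p = 0.0126) was not called. Their median was -0.31 (-0.03 over all genes). The lists' medians, from -0.13 for the lipase list to -0.55 for HDL remodelling, were all below that of all genes. On library totals, 1.26% of all tested genes were called lower and 21.4% higher. No gene of VLDL assembly and no transcription factor was called lower there, Creb3l3 and Rora included, and each of the 6 lists had 1 to 3 genes called higher. The genes called lower were then Lipg of HDL remodelling and Apom and Apoh of the other apolipoproteins. The transcription factor list had a median of -0.03 on that scale, where all genes had 0.26. With the hepatocyte list, the medians of the 6 pathway lists were 0.05 to 0.44, where all genes had 0.56. Of their genes, 1 was called lower (0.614% of all tested genes), and each list had 2 to 4 called higher (38.8%).

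Within diets and Xist sets, whose means were removed, 8 pairs of the 10 genes were correlated across the 24 libraries (permutation within diet and set, 16 tests of r and rho adjusted together). Apoe and Apoc1 alone passed, with r = 0.80 (p = 0.00117, adjusted p = 0.00936) and rho = 0.72 (p = 0.00091, adjusted p = 0.00936). Without the 2 libraries farthest in Apoe (control replicate 10 and FFD replicate 3), r was 0.60, and without control replicate 10 r was 0.59 and rho 0.46. The other pairs had adjusted p of 0.102 or more. For Apoa1 and Apoc3, r = 0.63 (p = 0.0255, adjusted p = 0.102) was 0.21 without control replicate 10.

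By likeness of level over the 24 libraries (Pearson r of log2 values, 13917 genes searched), the genes nearest to the 5 called ones were Rbp4 (r = 0.92) and Endog (0.92) for Apoa1, Apoh (0.94) and Marc1 (0.94) for Apoa5, S100a10 (0.92) and Asna1 (0.91) for Apoc2, Asgr1 (0.96) and Mif4gd (0.96) for Apoc3, and Txlng (0.95) and Atl2 (0.95) for Mttp. These correlations share the diet difference and include control replicate 10, which stood apart. They were not repeated without it, and are a description.

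The departure of control replicate 10 followed exon length over the 10 genes. The log2 ratio to the median of the other 11 control libraries was above 1.6 for Apoa2, Apoc1, Apoc2 and Apoc3, whose exons cover 537 to 1014 bp, 0.99 for Apoa1 (1236 bp), -0.11 for Mttp (6206 bp) and -0.93 for Apob (13934 bp). Apoa4 (1815 bp, -0.43) lay off this order. Over these 10 genes r with log2 length was -0.88 and rho was -0.84, given as a description of 1 library against 11. Over the tested genes with higher mean counts, the median log2 ratio was 1.37 for the 271 genes up to 1000 bp. It was -0.41 for the 3173 genes over 6000 bp. The part of this in the diet effects was not tested beyond leaving the library out.

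**Figure D5:**
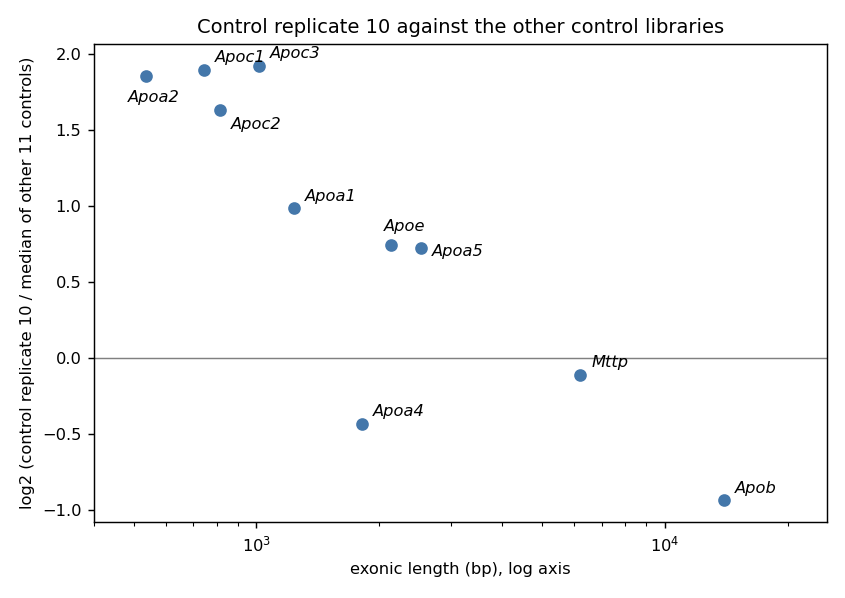
Log2 ratio of the level in control replicate 10 to the median of the other 11 control libraries against exonic length (bp, log axis) for the 10 genes. The 4 shortest genes are near 1.6 to 1.9 and Apob, the longest, is at -0.93.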

How the data were processed

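RNA-Seq of whole mouse liver, extracted with Trizol and selected for poly(A), was analysed in 12 FFD and 12 control diet libraries. The authors deposited raw, unnormalized counts per Ensembl gene in 1 table. The submitters' processing notes name STAR 2.7.3a, bcl2fastq and the build mm10, and the counting program and annotation are not given in the sources used here. Symbols came from GENCODE M21 for 51745 of 56205 IDs, and the other 4460 held 0.0723% of counts. All columns matched a library.

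From the counts, genes counted (1 or more) in 12 or more libraries were tested with edgeR 4.0.16 (R 4.3.3; TMM, quasi-likelihood, diet as the only term, Benjamini-Hochberg over 17913 genes). 8568 genes had an unadjusted p under 0.05. Calls needed an adjusted p of at most 0.01 and a log2 fold change beyond 0.5. The steps were tested on simulated data. Depth is given as total counts per library, and replication, not counting error, limits the values at these levels. Libraries of a diet differed beyond sampling noise in every pair (chi-square over its degrees of freedom 10.1 or more). Same-numbered libraries of the diets had correlated deviations from -0.0923 to 0.529, and were not treated as pairs.

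The genes, lists and tests were chosen with earlier results of these data known. Named are the 10 genes, up to 4 called genes per direction of each pathway list plus preset genes (some of which are not reported here), up to 2 called markers per cell type list, and the 2 genes most like each called gene. Alternatives were DESeq2 1.42.0, limma-voom (limma 3.58.1), surrogate variables (sva 3.50.0), other scalings, filters, thresholds, covariates, a replicate block, subsets and each library left out. Leaving out control replicates 10 and 11 together, library totals without control replicate 10 or with the Xist set as a covariate, and lists without control replicate 10 were added after seeing the data.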

Additional observations from a re-analysis of the deposited data

How the results depend on the processing

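Of the 10 genes, 1 was called higher and 4 lower. The higher count was 2 with DESeq2, with library totals (also with the Xist set as a covariate), without control replicates 10 and 11 and at an adjusted p of at most 0.05 with no fold threshold. It was 3 with hepatocyte list scaling and with library totals without control replicate 10, and 0 within either Xist set or at a log2 fold change over 1. Leaving out 1 library gave 0 to 2. The lower count was 2 with library totals, alone, without control replicate 10 or with the Xist covariate, 2 in the Xist-high set, and 0 with hepatocyte list scaling or a log2 fold change over 1. It was 4 without any 1 library. DESeq2 replaced the Apoc1 count of control replicate 10 as an outlier and also called Apoa2 (-0.61) lower and Apoa4 (0.92) higher. Over all genes (2372 higher, 894 lower), the counts were 3827 and 226 with library totals, 6951 and 110 with the hepatocyte list, 3701 and 281 with library totals without control replicate 10, 3876 and 278 with totals and the Xist covariate, 520 and 158 in the Xist-high set, and 3709 and 3388 at an adjusted p of at most 0.05. At least 10 counts in every library gave 1226 higher, the Xist-low set 1431 lower and a log2 fold change over 1 gave 216 lower. Apob turned positive with library totals (0.0198, and 0.0182 with the Xist covariate) and the hepatocyte list (0.33). Apoc1 turned positive with DESeq2 (0.0321), library totals (0.0700, with the Xist covariate 0.0779, without control replicate 10 0.27), the hepatocyte list (0.25), the Xist-high set (0.17), without control replicate 10 (0.0155) and without control replicates 10 and 11 (0.00209), and spanned -0.326 to 0.0155 without 1 library. The cause was not tested.

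The Apoc3/Apoa1 log2 ratio turned to -0.0855 between medians and -0.0686 in the Xist-low set, and spanned -0.0396 to 0.0871 without 1 library. In the Xist-high set Apoc1/Apoe was -0.18 (exact permutation p = 0.145) and Apoc2/Apoe 0.46 (exact permutation p = 0.0866). The pairs correlated numbered 0 with library totals and 3 with diet means alone removed. Apoa4 and Mttp turned to r = -0.14 with diet means alone, and their r spanned -0.12 to 0.33 without 1 library.

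With diet means removed, 2 of 12 FFD libraries correlated best with the control of their own number. Differences between the Xist sets were left in, and control replicate 11 was the best partner of FFD replicates 7 to 12. The count therefore cannot decide whether the numbers pair the libraries. A fit with the replicate block gave Mttp -0.81, Apoa5 -0.85, Apoa1 -0.72, Apoc3 -0.69 and Apoc2 0.77, with the same 5 genes called. The lowest count of any of the 10 genes in a library was 2616 (Apoc2), so depth limits the values less than the spread between libraries.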
